A study of Mus musculus with 12 samples.

Results

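The 9 genes described here encode the core enzymes of glycogen synthesis and breakdown and the scaffold proteins that steer them: *Gyg*, *Ugp2*, *Gys1*, *Gys2*, *Gbe1*, *Pygl*, *Pygb*, *Ppp1r3b* and *Ppp1r3c*. They were chosen by name, and all 9 are among the 14159 genes listed in the normalized counts of inguinal white adipose tissue (iWAT). RNA was sequenced from whole iWAT of 4 groups of mice, with 3 libraries per group that the labels call biological replicates (numbered 0, 1 and 2). Atf4AKO mice carried floxed *Atf4* alleles and the *Adipoq*-Cre transgene, whose promoter is active in adipocytes. Atf4WT mice were littermates with the same floxed alleles and no Cre, and both genotypes were on a C57BL/6 background. Mice of each genotype were kept at room temperature (RT) or at 5 °C for 24 h (cold), and their age is not stated for the sequencing. *Atf4* encodes a transcription factor of the integrated stress response, and the deletion leaves it in the other cells of the tissue. In whole tissue, fewer cells of a type and less RNA per cell cannot be told apart.

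Glycogen is a branched polymer of glucose. Glycogenin starts a chain, glycogen synthase extends it with glucose from UDP-glucose, and the branching enzyme adds branch points. Glycogen phosphorylase releases the glucose again, and targeting subunits of protein phosphatase 1 bring that phosphatase to the particle, where it activates the synthase and switches off the phosphorylase. Adipocytes keep a small glycogen store that turns over with feeding and, in thermogenic fat, with cold.

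The tissue and the deletion were checked first. All 10 white adipocyte markers were listed, with a mean of 15.55 to 16.15 on the log2 scale in each library. *Atf4* lay between 4107 and 7644 normalized counts in the 6 Atf4WT libraries and between 788 and 1639 in the 6 Atf4AKO libraries. Markers of skeletal muscle (9 of 12 listed) had a mean of 12.99 in Atf4WT RT replicate 2, 11.47 in Atf4WT cold replicate 0 and 8.56 in Atf4AKO cold replicate 1, against 4.17 to 5.53 in the other libraries. Markers of B and T cells (18 of 20 listed) had a mean of 7.23 to 9.80 in cold Atf4WT iWAT and 7.05 in Atf4WT RT replicate 2, against 3.47 to 5.11 elsewhere. Markers of fibroblasts (4 of 4 listed) had a mean of 12.68 to 13.15 at RT and 10.68 to 12.33 after cold exposure, without overlap. Markers of macrophages (7 of 8 listed) had a mean of 9.90 in Atf4WT and 9.02 in Atf4AKO cold replicate 1, the libraries with the lowest fibroblast markers, against 11.20 to 12.19 in the others. Each library held 25719476 to 29105147 reads on listed genes, and the members had 584 to 21029 reads in each library. Counting error was therefore small beside the spread between replicates.

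To determine which glycogen genes respond to cold, cold libraries were compared with RT libraries within each genotype. After cold exposure *Gys2* and *Gyg* RNA was higher and *Pygb* RNA was lower in both genotypes. *Gys2*, the synthase known from liver, showed a fold change of 2.97 in Atf4WT and 2.95 in Atf4AKO iWAT, while *Pygb*, the brain-type phosphorylase, fell to 0.452 and 0.546 of its RT level. Calls were made at a Benjamini-Hochberg adjusted p under 0.05 from limma, fitted to log2(normalized count + 1) of 13404 genes. In Atf4WT iWAT 3 of 9 members were called, 2 higher and 1 lower, where 31.9% of all tested genes were called (17% higher and 14.9% lower). In Atf4AKO iWAT 4 of 9 were called, 3 higher and 1 lower, against 25.9% of all tested genes (14.8% higher and 11% lower). The median log2 fold change of the members was 0.28 in Atf4WT and 0.40 in Atf4AKO mice, beside 0.0026 and -0.03 over all tested genes. Cold and RT libraries did not overlap for 33.3% of the members in Atf4WT and 55.6% in Atf4AKO mice. The same held for 46.8% and 41.7% of all tested genes, so a lack of overlap was common and does not mark out a member. The study counted genes that changed more than 1.5 times at an unadjusted p under 0.05, and by this threshold 3 members passed in each genotype, *Gys2* and *Ppp1r3b* higher and *Pygb* lower. This threshold passed 21.2% of all genes in Atf4WT and 17.2% in Atf4AKO mice.

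**Figure D1:**
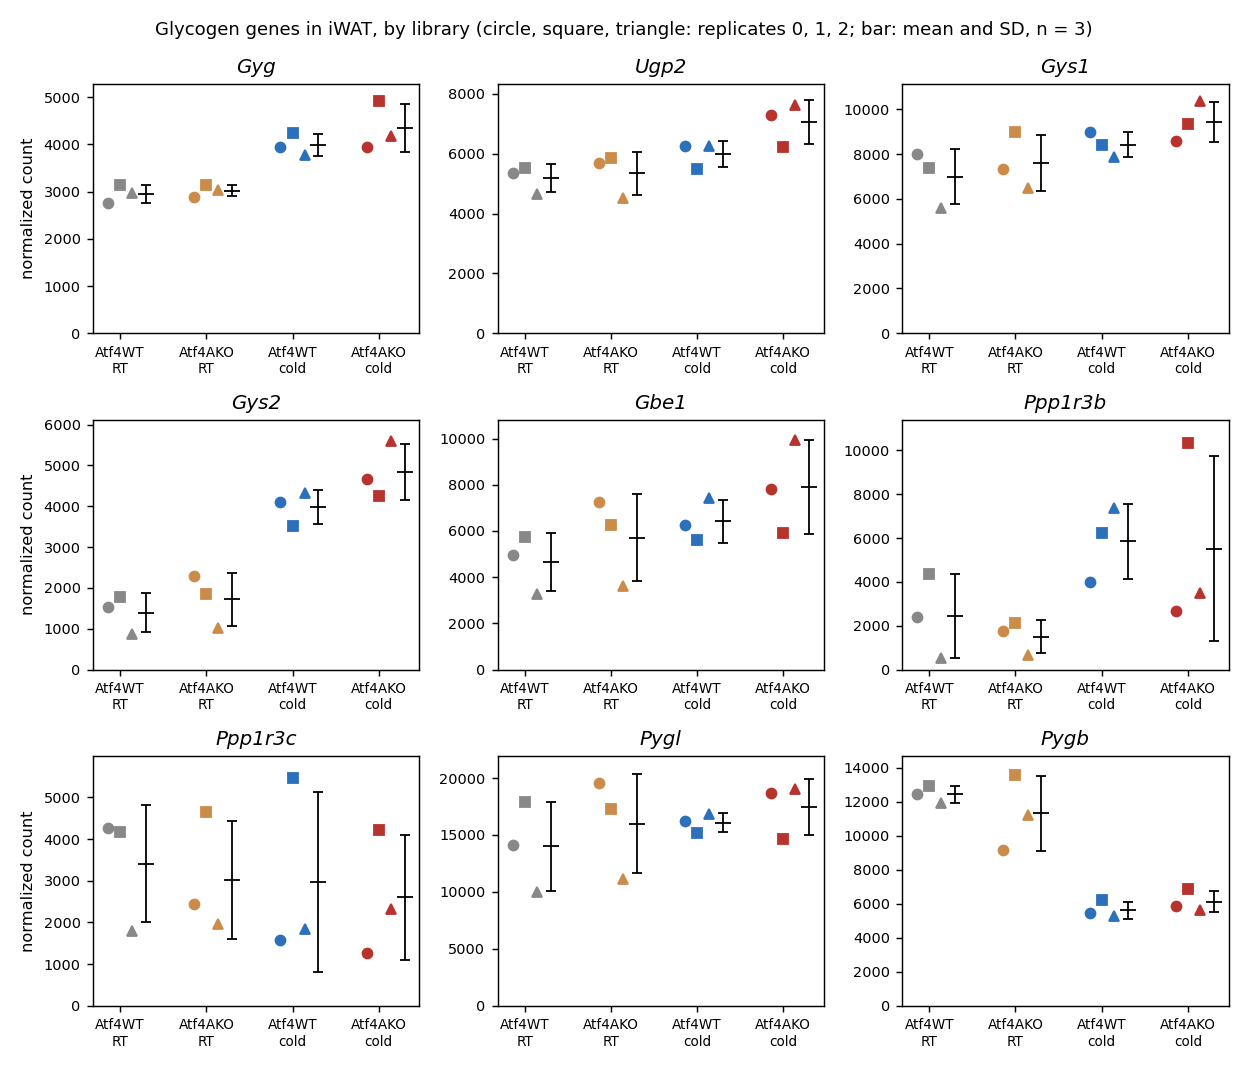
Normalized counts (y axes, from 0) of the 9 genes in the 12 libraries, by genotype and temperature (x axes). Each symbol is 1 library, and the bars give the mean and SD of 3. The cold libraries of *Gys2* (3512 to 5587) all lie above its RT libraries (865 to 2299), and those of *Pygb* (5257 to 6848) all lie below (9174 to 13554).

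Of the genes that supply and start the chain, *Gyg* (NM_013755, chr3:20122084-20155317 of mm10, minus strand) encodes glycogenin, the protein that primes glycogen on itself. Its normalized counts were 2754, 3136 and 2964 in Atf4WT and 2894, 3145 and 3033 in Atf4AKO mice at RT. After cold exposure they were 3945, 4236 and 3783 in Atf4WT and 3942, 4928 and 4170.0 in Atf4AKO mice. All 6 cold libraries lay above all 6 RT libraries, by a modest margin. On the log2 scale *Gyg* rose by 0.43 (standard error 0.09, limma adjusted p = 0.00506) in Atf4WT and by 0.52 (adjusted p = 0.00246) in Atf4AKO mice. With the fibroblast marker mean as a covariate the values were 0.27, which was not called (adjusted p = 0.0613 from limma), and 0.33 (adjusted p = 0.0444). *Ugp2* (NM_001290634, chr11:21321138-21371201, minus strand) encodes the pyrophosphorylase that makes UDP-glucose. It had 5361, 5531 and 4662 normalized counts in Atf4WT RT and 6253, 5473 and 6245 in Atf4WT cold libraries, so these groups overlapped. In Atf4AKO mice it had 5681, 5843 and 4505 at RT and 7283, 6231 and 7635 after cold exposure, with no overlap. Its log2 fold change of 0.21 in Atf4WT mice was not called (standard error 0.12, limma adjusted p = 0.203), and that of 0.40 in Atf4AKO mice was (adjusted p = 0.0295). The latter call was lost without Atf4AKO RT replicate 2 (adjusted p = 0.0947 from limma), without Atf4AKO cold replicate 0 (0.0731) or 2 (0.0953), and in a fit of only the groups compared (0.0694).

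The glycogen synthases form the chain itself. *Gys1* (NM_030678, chr7:45434844-45456619, plus strand), the form known from muscle, had 7990.4, 7378 and 5611 normalized counts in Atf4WT and 7343, 8973 and 6506 in Atf4AKO mice at RT. After cold exposure it had 8984, 8426 and 7855 in Atf4WT and 8591, 9335 and 10383 in Atf4AKO mice. The groups overlapped in both genotypes, and the log2 fold changes of 0.28 and 0.32 were not called (standard error 0.15, adjusted p = 0.166 and 0.132 from limma). Added as a covariate, the B and T cell marker mean gave 0.78 (adjusted p = 0.0112) for *Gys1* in Atf4WT mice. *Gys1* overlaps *Ruvbl2* on the opposite strand, and with the strand setting of the counting not given, reads from the overlap cannot be assigned with certainty. The same limit holds for *Pygl*, *Ppp1r3b* and *Ugp2*, which overlap opposite-strand genes that were not listed. *Gys2* (NM_145572, chr6:142422613-142473109, minus strand) had 1534, 1788 and 865 normalized counts in Atf4WT RT libraries and 4111, 3512 and 4323 in Atf4WT cold libraries. In Atf4AKO mice it had 2299, 1840.0 and 1021 at RT and 4666, 4248 and 5587 after cold exposure. All cold libraries lay above all RT libraries in both genotypes. On the log2 scale *Gys2* rose by 1.57 (standard error 0.30, limma adjusted p = 0.00315) in Atf4WT and by 1.56 (adjusted p = 0.00394) in Atf4AKO mice. With the B and T cell marker mean as a covariate the log2 fold change in Atf4WT mice was 2.24 (adjusted p = 0.00999 from limma). Since *Gys2* is known from liver, hepatocyte markers were read beside it. *Alb*, *Apoa1*, *Serpina1a* and *Cyp2e1* were listed, with a mean of 8.42 to 8.98 on the log2 scale at RT and 8.55 to 9.33 after cold exposure. *Alb* had 674 to 2030 normalized counts at RT and 554 to 1444 after cold exposure, and *Cyp2e1* 61692 to 141448 and 68732 to 122106. *Serpina1a* had 32.2 to 73.1 and 45.4 to 117, and *Apoa1*, near the floor, 3.71 to 11.9 and 6.59 to 20.1. *Cyp2e1* thus lay far above the other listed hepatocyte markers and raised their mean. Its level was like that of the adipocyte marker *Adipoq* (55500 to 108458), so the mean is no measure of liver RNA. *Ttr*, *Tat* and *Fgb* were not listed, and the part of these markers in the result was not tested.

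*Gbe1* (NM_028803, chr16:70313949-70569716, plus strand) encodes the branching enzyme. Its normalized counts were 4961, 5718 and 3272 in Atf4WT RT and 6261, 5588 and 7432 in Atf4WT cold libraries. They were 7241, 6252 and 3606 in Atf4AKO RT and 7826, 5896 and 9959 in Atf4AKO cold libraries. Both pairs of groups overlapped, and the log2 fold change of 0.50 in each genotype was not called (standard error 0.28, adjusted p = 0.202 and 0.217 from limma).

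Among the members, *Gys1* and *Ugp2* followed each other most closely over the 12 libraries. The root mean square difference between their centred log2 values was 0.13, the smallest of the 36 pairs of members. The 250 bases before the start of each are therefore shown, from RefSeq on GRCm38.p6, 5′ to 3′ on the strand of the gene. The window of *Gys1* is chr7:45434589-45434838 on the plus strand, and that of *Ugp2*, for the more upstream of its listed starts, is chr11:21371268-21371517 on the minus strand. Capitals mark matches on either strand to 6 short motifs, which are the box CCAAT, the GC box spelled GGGCGG, the core of a cAMP response element spelled TGACG, a C/EBP-ATF element spelled TGATGNAA, the E-box spelled CACGTG and a nuclear receptor element spelled AGGTCA. None of these spellings contains another.
*Gys1*: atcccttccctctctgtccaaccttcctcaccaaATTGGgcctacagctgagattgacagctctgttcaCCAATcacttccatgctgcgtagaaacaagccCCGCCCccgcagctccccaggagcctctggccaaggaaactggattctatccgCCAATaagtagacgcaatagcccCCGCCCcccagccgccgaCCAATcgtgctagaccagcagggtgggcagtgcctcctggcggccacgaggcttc
*Ugp2*: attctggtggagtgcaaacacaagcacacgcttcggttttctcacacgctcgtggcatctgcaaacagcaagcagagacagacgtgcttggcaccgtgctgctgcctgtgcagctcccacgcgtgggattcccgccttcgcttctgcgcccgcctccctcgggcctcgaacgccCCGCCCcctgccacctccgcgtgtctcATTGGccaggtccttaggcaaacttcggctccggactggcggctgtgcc
CCAAT occurred 4 times before *Gys1* and 1 time before *Ugp2*, and 33.8% of 32851 promoter windows of this length hold it. The GC box occurred 2 and 1 times, and 32.7% of windows hold it. The other 4 motifs were not among the letters of these windows.

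The targeting subunits of protein phosphatase 1 varied most between libraries. *Ppp1r3b* (NM_177741, chr8:35375739-35388139, plus strand) encodes the subunit called GL, known from liver. It had 2398, 4371 and 541 normalized counts in Atf4WT RT and 3989.8, 6217 and 7355 in Atf4WT cold libraries. In Atf4AKO mice it had 1737, 2132 and 646 at RT and 2662, 10361 and 3504 after cold exposure. Replicate 2 was the lowest of both RT groups, and 1 Atf4WT RT library reached above the lowest cold library, while the Atf4AKO groups did not overlap. The log2 fold changes of 1.67 in Atf4WT and 1.78 in Atf4AKO mice were the largest of the 9 members, yet with a standard error of 0.74 neither was called (adjusted p = 0.106 and 0.0988 from limma). In Atf4WT mice the log2 fold change was 0.81 without RT replicate 2, the library with the highest muscle markers, and 3.61 (adjusted p = 0.0442) with the B and T cell marker mean as a covariate. With the fibroblast marker mean it was 0.82 in Atf4WT and 0.85 in Atf4AKO mice, and without replicate 1 of both cold groups it was 1.19 in Atf4AKO mice, none of them called. The DESeq2 test called the gene in Atf4AKO mice (adjusted p = 0.0386). A block for the replicate number called it in both genotypes (adjusted p = 0.0433 in Atf4WT and 0.0395 in Atf4AKO mice from limma). Among the fits that left out a single library, 1 called it in Atf4WT mice. *Ppp1r3c* (NM_016854, chr19:36731731-36736653, minus strand) encodes the subunit also called PTG (protein targeting to glycogen). It had 4259, 4178 and 1788 normalized counts in Atf4WT RT, 1589, 5473 and 1853 in Atf4WT cold, 2455, 4643 and 1966 in Atf4AKO RT and 1262, 4209 and 2334 in Atf4AKO cold libraries. Replicate 1 was the highest in 3 of the 4 groups, and all groups overlapped. The log2 fold changes of -0.33 and -0.28 had a standard error of 0.56 and were not called (adjusted p = 0.688 and 0.739 from limma).

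The phosphorylases break the chain down. *Pygl* (NM_133198, chr12:70190811-70231488, minus strand), the form known from liver, had 14100.0, 17855 and 10013 normalized counts in Atf4WT RT and 16215, 15168 and 16825 in Atf4WT cold libraries. In Atf4AKO mice it had 19548, 17309 and 11112 at RT and 18677, 14648 and 19012 after cold exposure. The groups overlapped in both genotypes. The log2 fold changes of 0.24 and 0.16 were not called (standard error 0.23, adjusted p = 0.457 and 0.648 from limma). *Pygb* (NM_153781, chr2:150786735-150831758, plus strand) had 12434, 12944 and 11909 normalized counts in Atf4WT RT and 5429, 6189 and 5257 in Atf4WT cold libraries. In Atf4AKO mice it had 9174, 13554 and 11204 at RT and 5881, 6848 and 5639.9 after cold exposure. All 6 cold libraries lay below all 6 RT libraries. *Pygb* fell by 1.15 on the log2 scale in Atf4WT (standard error 0.13, adjusted p = 0.000209 from limma) and by 0.87 in Atf4AKO mice (adjusted p = 0.00112), the smallest adjusted p of the 9 members in each genotype.

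Because *Pygb* had that smallest adjusted p, the bases before its start are shown as well, on the plus strand from chr2:150786546-150786734 (RefSeq, GRCm38.p6). The window stops 61 bases before the RefSeq start, where the annotated gene begins in GENCODE. Capitals mark matches to the same 6 motifs.
*Pygb*: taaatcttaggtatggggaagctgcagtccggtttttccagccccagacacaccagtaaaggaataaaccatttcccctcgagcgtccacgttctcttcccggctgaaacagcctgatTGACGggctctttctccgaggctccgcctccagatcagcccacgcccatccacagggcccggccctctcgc
TGACG was the one motif found, 132 bases before the RefSeq start, and 17.8% of all windows hold it. Windows of 7 members were in the RefSeq table (*Gys2* and *Ppp1r3b* were missing). Among them TGACG occurred also before the RefSeq start of *Pygl*, 44 bases from it. That window lies wholly inside *Pygl* as GENCODE places the gene, so it is not upstream of the position given above. TGATGNAA, which 3.45% of all windows hold, was in none of these windows. CACGTG (6.02% of all windows) occurred before *Ppp1r3c* and AGGTCA (14.0%) in that same window of *Pygl*.

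**Figure D2:**
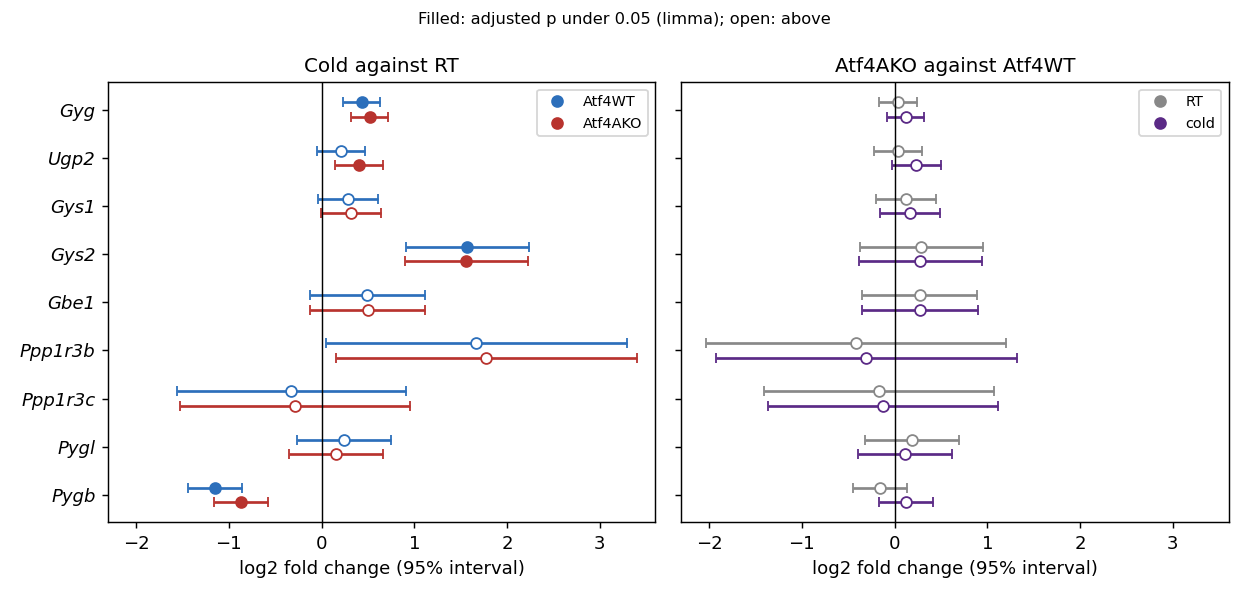
Log2 fold changes of the 9 genes (x axes) with 95% intervals from limma, for cold against RT in each genotype (left) and Atf4AKO against Atf4WT at each temperature (right). Filled points have an adjusted p under 0.05. *Gyg*, *Gys2* and *Pygb* are filled for both genotypes on the left, *Ugp2* for Atf4AKO alone, and no point is filled on the right.

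Atf4WT cold libraries had higher B and T cell markers than Atf4WT RT replicates 0 and 1, whose means were 3.90 and 3.62. In Atf4AKO mice these markers had a mean of 3.82 to 5.11 at RT and 3.47 to 4.96 after cold exposure. There *Gys2*, *Gyg* and *Pygb* were called in the same direction as in Atf4WT mice. In all, the B and T cell marker means were 3.62 to 7.05 in Atf4WT RT and 7.23 to 9.80 in Atf4WT cold libraries, without overlap. As a covariate this mean therefore cannot separate B and T cell content from cold in Atf4WT mice. The part of B and T cells in the Atf4WT changes was not tested. Without the 3 libraries with high muscle markers, a comparison added after seeing the data, 3 members were called in Atf4WT and 4 in Atf4AKO mice, where 26.5% and 16.6% of all tested genes were. *Gys2* then changed by 1.23 (adjusted p = 0.0209 from limma) and 1.65 (adjusted p = 0.00747), and *Pygb* by -1.15 and -0.96 on the log2 scale. *Gys1* in Atf4WT mice changed by 0.08 and *Ppp1r3b* by 1.06 in that comparison, neither of them called.

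Fibroblast markers were lower in all cold libraries, as *Pygb* was. *Col1a1*, a collagen gene of fibroblasts, had 17352 to 23891 normalized counts in Atf4WT RT and 3437 to 13159 in Atf4WT cold libraries. Within each cold group, *Pygb* was highest in replicate 1 (6189 and 6848 normalized counts), where the fibroblast markers were lowest (10.92 and 10.68). With the fibroblast marker mean as a covariate, added after seeing the data, *Pygb* changed by -1.35 (adjusted p = 0.000645 from limma) in Atf4WT and -1.09 (adjusted p = 0.00268) in Atf4AKO mice, and *Gys2* by 1.80 and 1.81 on the log2 scale. In that fit 2 members were called in Atf4WT and 4 in Atf4AKO mice, against 18.6% and 11.2% of all tested genes. Without replicate 1 of both cold groups, likewise added, 3 and 4 members were called, against 23.9% and 16.6%. Because the fibroblast marker means of RT and cold libraries did not overlap, this covariate cannot separate fibroblast content from cold. The part of fibroblasts in these changes was not tested.

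To compare the forms of an enzyme with each other, normalized counts were divided by the length of the merged exons of each gene, as counts per kb. The lengths are from GENCODE, whereas the deposited genes carry RefSeq identifiers, so absolute shares and levels per kb depend on the gene models. At RT *Gys2* made up 25.7, 30.4 and 21.7% of the *Gys1* and *Gys2* sum in Atf4WT and 36.1, 27.0 and 22.0% in Atf4AKO mice. After cold exposure its share was 45.2, 42.9 and 49.8% in Atf4WT and 49.5, 45.1 and 49.2% in Atf4AKO mice. The mean share thus went from 25.9% ± 4.33 (SD, n = 3) to 46.0% ± 3.51 in Atf4WT and from 28.4% ± 7.12 to 47.9% ± 2.48 in Atf4AKO mice, without overlap in either genotype. *Pygb* made up 55.8, 51.0 and 63.0% of the *Pygb* and *Pygl* sum in Atf4WT and 40.2, 52.9 and 59.1% in Atf4AKO mice at RT. After cold exposure its share was 32.4, 36.9 and 30.9% in Atf4WT and 31.1, 40.1 and 29.8% in Atf4AKO mice. The Atf4WT groups were well apart, whereas the lowest RT and the highest cold library of Atf4AKO mice nearly met. Each of these 4 comparisons with cold gave an exact permutation p = 0.1 (two-sided), the smallest that 3 libraries against 3 allow. Between genotypes at 1 temperature the shares overlapped, with exact permutation p-values of 0.5 to 0.9. With the muscle form *Pygm* in the sum, the *Pygb* share was 55.5, 50.7 and 35.1% in Atf4WT RT and 25.7, 36.7 and 30.7% in Atf4WT cold libraries, so that these groups overlapped (exact permutation p = 0.2). The lowest of these RT shares was in replicate 2, the library with the highest muscle markers. The Atf4AKO groups had 40.0 to 58.5% at RT and 29.6 to 38.7% after cold exposure and did not overlap.

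**Figure D3:**
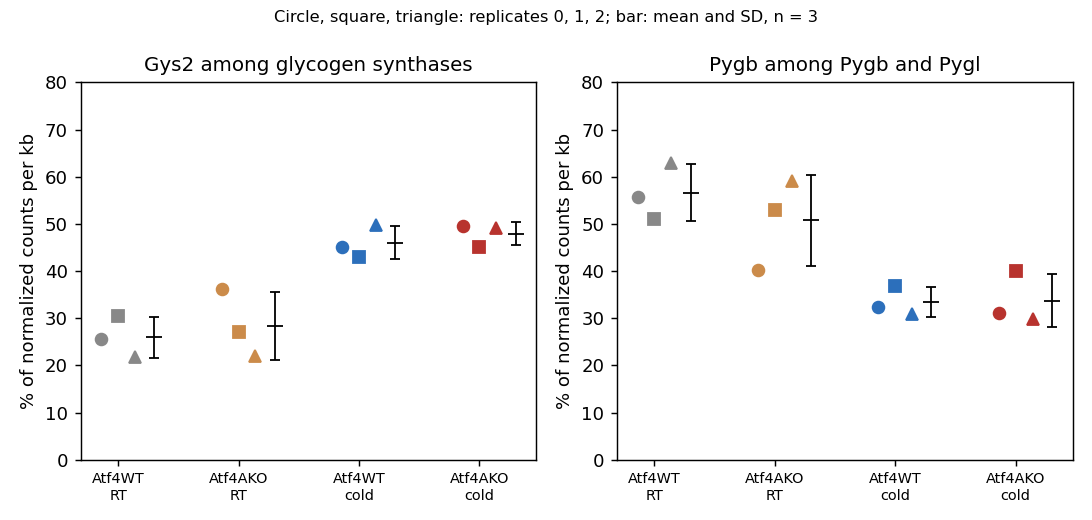
Share of *Gys2* in the sum of *Gys1* and *Gys2* (left) and of *Pygb* in the sum of *Pygb* and *Pygl* (right), in % of normalized counts per kb of exon (y axes, from 0), by group (x axes). Each symbol is 1 library, and the bars give the mean and SD of 3. All cold libraries have a *Gys2* share of at least 42.9%, and no RT library has more than 36.1%.

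The order of the 9 levels per kb was the same in both genotypes at each temperature. At RT it ran, from high to low, *Pygb*, *Pygl*, *Ugp2*, *Gys1*, *Gyg*, *Ppp1r3c*, *Gbe1*, *Gys2* and *Ppp1r3b*. In Atf4WT mice this spanned 2585 ± 108 (SD, n = 3) normalized counts per kb for *Pygb* to 392 ± 308 for *Ppp1r3b*. Each gene overlapped with the next one in Atf4WT mice at RT, so that the order of neighbours is not fixed by these libraries. The place of *Pygb* above *Pygl* also rests on the exon lengths used. Without division by length, *Pygl* had the higher mean at RT, with 13989 against 12429 normalized counts in Atf4WT and 15990 against 11311 in Atf4AKO mice. In Atf4AKO mice at RT *Gys1* was separate from *Gyg*, and *Gys2* from *Ppp1r3b*. After cold exposure the order was *Pygl*, *Ugp2*, *Gys1*, *Gyg*, *Gys2*, *Gbe1*, *Pygb*, *Ppp1r3c* and *Ppp1r3b*. *Pygb* had moved from the highest to the seventh place, at 1170.0 ± 103 per kb in Atf4WT and 1273 ± 133 in Atf4AKO mice, and *Gys2* from the eighth to the fifth, at 1499 ± 158 and 1819 ± 258. Of the neighbours after cold exposure, *Pygl* and *Ugp2* were separate in Atf4WT mice and all others overlapped.

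The members also differed in how much they varied among replicates. The SD within groups, pooled over the 4 groups on the log2 scale, was 1.06 for *Ppp1r3b*, 0.81 for *Ppp1r3c*, 0.43 for *Gys2* and 0.40 for *Gbe1*. It was 0.17 for *Pygb*, 0.15 for *Ugp2* and 0.11 for *Gyg*, beside a median of 0.19 over all tested genes. *Ppp1r3b* varied more than 98.0% of the tested genes and *Gyg* more than 17.1%. The low values clustered in particular libraries. Atf4WT RT replicate 2 was the lowest of its group for 8 of 9 members, all but *Gyg*, while 44.6% of all tested genes were lowest there. Atf4AKO RT replicate 2 was the lowest of its group for 7 of 9 members, all but *Gyg* and *Pygb*, while 42.0% of all tested genes were lowest there. The same libraries had the lowest adipocyte marker mean of their groups, 15.60 and 15.73, against 15.81 to 16.07 in the other RT libraries, and the part of this in the low values was not tested. In cold Atf4AKO iWAT *Gys2*, *Pygl*, *Gbe1* and *Ugp2* were lowest in replicate 1, where *Ppp1r3b*, *Ppp1r3c*, *Gyg* and *Pygb* were highest.

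**Figure D4:**
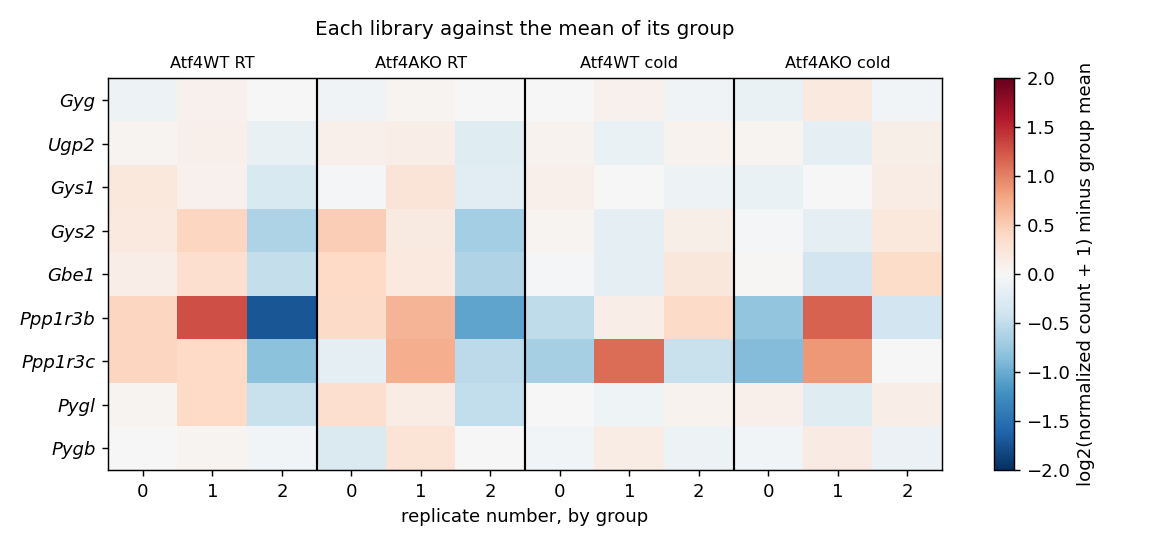
Log2(normalized count + 1) of each gene (rows) in each library (columns) minus the mean of its group, in colour from blue (below the group mean) to red (above). Replicate 2 of both RT groups is blue for most genes, and *Ppp1r3b* and *Ppp1r3c* hold the deepest colours, with pooled SDs of 1.06 and 0.81.

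To determine whether the loss of *Atf4* in adipocytes altered these genes, Atf4AKO and Atf4WT libraries were compared at each temperature. No member was called at RT or after cold exposure, where 0.00746% and 0.0298% of all tested genes were called (1 gene and 4 genes). At RT this test did not call the deleted gene *Atf4* itself (log2 difference -1.61, adjusted p = 0.0762 from limma). After cold exposure it did (-2.60, adjusted p = 0.000644 from limma). The absence of a call at RT therefore says little about the members. None of the 9 had an unadjusted p under 0.05 from limma in either comparison, beside 1.53% of all tested genes at RT and 11.7% after cold exposure. DESeq2 called none of the members, beside 5 and 590 of all genes (0.0373% and 4.4%). The quasi-likelihood test of edgeR called none, beside 1 and 3 (0.00746% and 0.0224%). Without the 3 libraries with high muscle markers 0.0224% of all genes were called at RT, 3.62% after cold exposure and 2.01% in the difference of the responses, with no member among them. After cold exposure the log2 difference of Atf4AKO from Atf4WT mice was 0.28 for *Gys2*, with a 95% interval of -0.39 to 0.94. The interval was -0.17 to 0.41 around 0.12 for *Pygb*, and -0.08 to 0.32 around 0.12 for *Gyg*. It was -0.03 to 0.50 around 0.23 for *Ugp2* and -1.93 to 1.32 around -0.31 for *Ppp1r3b*. With the B and T cell marker mean as a covariate the difference after cold exposure was -2.63 for *Ppp1r3b*, outside that interval, and -1.45 for *Ppp1r3c* in place of -0.13, neither of them called (adjusted p = 0.999 from limma for each). The marker means of the cold groups did not overlap, so this covariate cannot separate B and T cell content from genotype. With 3 libraries per group, true differences anywhere within the 95% intervals given remain possible. The intervals are not adjusted for the number of genes tested, whereas the calls are, so differences outside them could also go uncalled. At RT the differences ran from -0.42 for *Ppp1r3b* to 0.29 for *Gys2*. The response to cold in Atf4AKO minus that in Atf4WT mice was called for none of the members. Of all tested genes limma called 0 (0%) and edgeR 0. An unadjusted p under 0.05 from limma was reached by 928 genes (6.92%), and DESeq2 called 132 (0.985%). No member was among either of the latter sets, which at these shares says little about 9 genes. The difference of the responses was -0.01 for *Gys2* (95% interval -0.95 to 0.92), 0.27 for *Pygb* (-0.14 to 0.69), 0.08 for *Gyg* (-0.20 to 0.37), 0.19 for *Ugp2* (-0.18 to 0.57) and 0.11 for *Ppp1r3b* (-2.18 to 2.40). The comparisons share control libraries and are not independent of each other.

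The other genes of the pathway were read from a list of 31, of which *Ppp1r3a* was not listed and *Ppp1r3g*, with 1 to 18 reads in a library, fell below the filter. After cold exposure 10 of the 29 tested genes (34.5%) were called in Atf4WT mice, 3 higher and 7 lower. In Atf4AKO mice 8 of 29 (27.6%) were called, 3 higher and 5 lower, so that both shares were near those of all genes. The median log2 fold change of the list was -0.10 and 0.07.

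Among the other enzymes of breakdown, *Gaa*, the lysosomal glucosidase, fell in Atf4WT mice by 0.32 on the log2 scale (adjusted p = 0.0203 from limma). *Pygm*, the muscle phosphorylase, had 10049 normalized counts in Atf4WT RT replicate 2, 2925 in Atf4WT cold replicate 0 and 435 in Atf4AKO cold replicate 1, the libraries with high muscle markers, and 76.3 to 128 in the other libraries. There it made up 44.3, 20.7 and 3.67% of the 3 phosphorylases per kb and at most 0.999% elsewhere.

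Of the 5 subunits of phosphorylase kinase, which activates the phosphorylases, 3 were called lower in Atf4WT mice and 2 in Atf4AKO mice, where 14.9% and 11% of all tested genes were, and none was called higher. *Phkg1*, a catalytic subunit, fell by 1.33 in Atf4WT (adjusted p = 0.00424 from limma) and by 1.23 in Atf4AKO mice (adjusted p = 0.00736). Its highest value, 1075 normalized counts, was in Atf4WT RT replicate 2, and without the 3 libraries with high muscle markers it fell by 1.15 and 1.34. *Phkb*, the beta subunit, had 2038, 2213 and 2321 normalized counts in Atf4WT RT and 1559, 1364 and 1378 in Atf4WT cold libraries, and fell by 0.61 (adjusted p = 0.000478) in Atf4WT and 0.32 (adjusted p = 0.0164) in Atf4AKO mice. *Phka2*, an alpha subunit, fell by 0.49 in Atf4WT mice (adjusted p = 0.0323).

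The genes of glycogen quality control and glycophagy had 2 of 3 members called lower in both genotypes, beside the same 14.9% and 11% of all tested genes. These counts of few genes are given as a description. *Stbd1*, a starch-binding protein that ties glycogen to membranes, had 299, 259 and 326 normalized counts in Atf4WT RT and 113, 87.6 and 141 in Atf4WT cold libraries. *Stbd1* fell by 1.38 (adjusted p = 0.00179 from limma) in Atf4WT and 1.09 (adjusted p = 0.00716) in Atf4AKO mice. *Epm2a*, which encodes the glycogen phosphatase laforin, had 153, 134 and 126 normalized counts in Atf4WT RT and 59.6, 53.8 and 47.1 in Atf4WT cold libraries. *Epm2a* fell by 1.35 (adjusted p = 0.00121 from limma) in Atf4WT and 0.88 (adjusted p = 0.0131) in Atf4AKO mice. *Phkg1*, *Stbd1* and *Epm2a* moved in the same direction as the fibroblast markers. With the mean of those markers as a covariate they changed by -1.32, -0.98 and -1.29 in Atf4WT mice, all called, and by -1.23, -0.64 and -0.81 in Atf4AKO mice, where none was called (adjusted p = 0.0546, 0.119 and 0.0993 from limma). *Gsk3a*, a kinase that inactivates glycogen synthase, rose by 0.52 (adjusted p = 0.000866 from limma) and 0.54 (adjusted p = 0.000783). *Hk2*, the insulin-responsive hexokinase, rose by 0.80 (adjusted p = 0.0289) and 0.84 (adjusted p = 0.0275). Its highest normalized counts were in replicate 1 of both cold groups (10726 in Atf4WT and 10271 in Atf4AKO mice). Without these libraries *Hk2* rose by 0.59 in Atf4WT mice and was not called (adjusted p = 0.0866 from limma).

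The other calls were made in 1 genotype each. In Atf4WT mice *Ppp1cc*, a catalytic subunit of protein phosphatase 1, rose by 0.37 (adjusted p = 0.0115 from limma) and *Pgm2l1*, a glucose bisphosphate synthase, fell by 0.47 (adjusted p = 0.0234). In Atf4AKO mice *Ppp1cb*, another catalytic subunit, rose by 0.31 (adjusted p = 0.0279 from limma) and *Hk1*, the hexokinase of most tissues, fell by 0.50 (adjusted p = 0.0231). Neither glucose transporter was called, with 0.12 and 0.07 for *Slc2a1* and 0.32 and 0.41 for *Slc2a4* on the log2 scale. Without the 3 libraries with high muscle markers 7 of 29 genes were called in Atf4WT and 6 in Atf4AKO mice (26.5% and 16.6% of all tested genes), the lost calls being those of *Phka2*, *Pgm2l1* and *Ppp1cc* in Atf4WT and of *Epm2a* and *Ppp1cb* in Atf4AKO mice. With the B and T cell marker mean as a covariate 4 of 29 were called in Atf4WT mice (*Gsk3a*, *Phkb*, *Phkg1* and *Stbd1*) and 8 in Atf4AKO mice, where 13% and 27.1% of all tested genes were called. With the fibroblast marker mean 7 and 1 were called, where 18.6% and 11.2% of all tested genes were. Without replicate 1 of both cold groups the counts were 7 and 5, beside 23.9% and 16.6%. Between the genotypes none of the 29 was called at RT, after cold exposure or in the difference of the responses by limma, edgeR or DESeq2, and 2, 3 and 1 of them had an unadjusted p under 0.05 from limma.

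**Figure D5:**
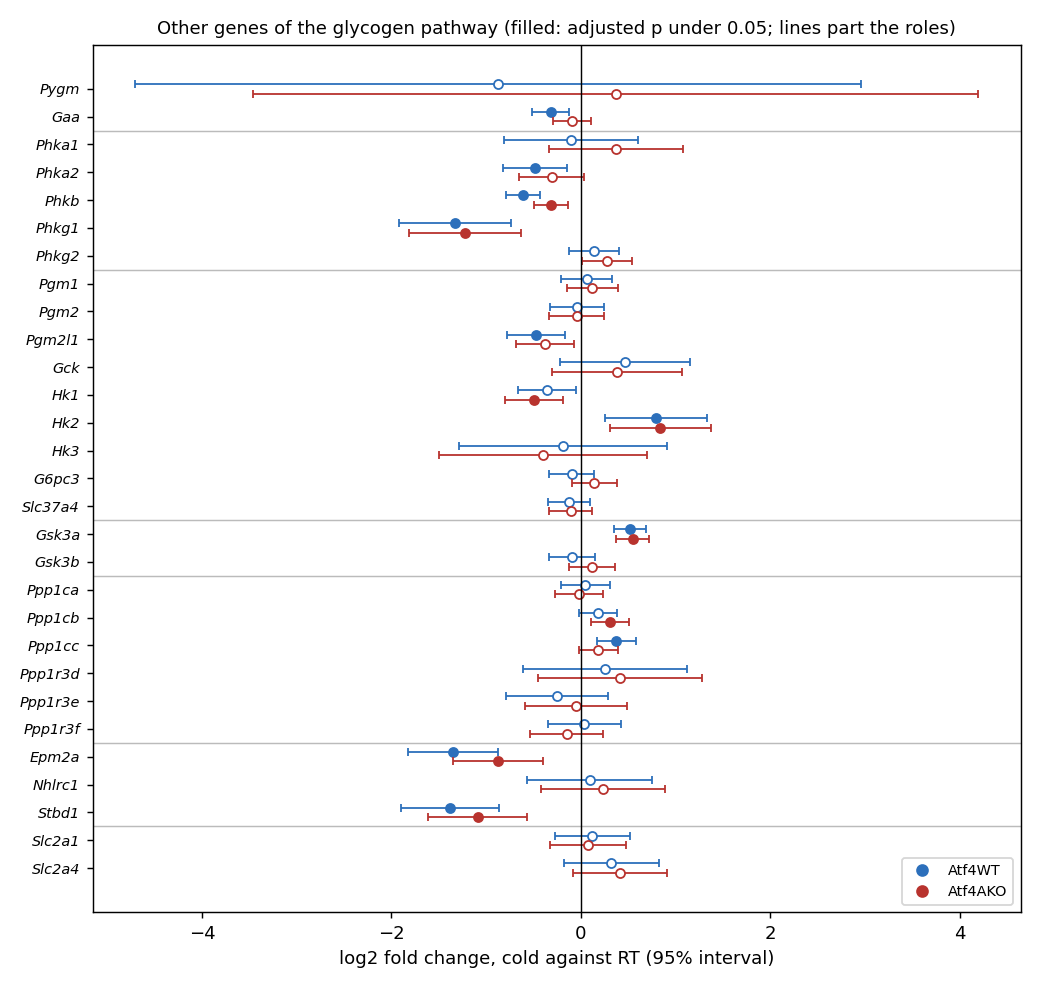
Log2 fold changes with 95% intervals from limma for cold against RT (x axis) of the 29 tested genes of the wider list (y axis), in Atf4WT (blue) and Atf4AKO (red) mice. Grey lines part the roles, from breakdown at the top to glucose transporters at the bottom, and filled points have an adjusted p under 0.05. *Gsk3a* and *Hk2* are filled to the right and *Phkb*, *Phkg1*, *Epm2a* and *Stbd1* to the left in both genotypes, and *Pygm* has the widest intervals.

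For *Ppp1r3b* and *Gys2*, the members with the largest mean change in cold, the genes with the most similar pattern over the 12 libraries were sought among 10933 genes whose mean reached 100 normalized counts. Likeness was the root mean square difference of centred log2 values, which is small for genes that move alike in size as well as in direction. Nearest to *Gys2* were *Otop1* (0.224), a proton channel gene, *Agpat2* (0.226), an acyltransferase of triglyceride synthesis, *Paqr9* (0.235), *Tmem79* (0.256) and *Gpd1* (0.263), which makes glycerol 3-phosphate, against a median of 0.889 over the compared genes. The genes near to *Ppp1r3b* included *Mid1ip1* (0.572), a regulator of fatty acid synthesis, *Angptl8* (0.603), an inhibitor of lipoprotein lipase, *Hephl1* (0.637) and *Tmem79* (0.639), against a median of 1.25. *Tmem79* was in both sets. These values describe patterns that share the same 12 libraries and no test was made on them.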

How the data were processed

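Strand-specific libraries were made from the polyadenylated RNA of whole iWAT. After filtering with SOAPnuke, the authors aligned the reads to mm10 (STAR), assigned unique alignments to genes (featureCounts) and divided each library by its pyDESeq2 size factor. The deposited values are thus a normalized signal (normalized counts), and each listed gene had at least 1 read in each library. Tool versions and the strand setting of the counting are not given in the sources used here. The smallest value of a library stood for 1 read, and in these units 100% of values were whole (tolerance 0.01 reads). Each library held 25719476 to 29105147 reads, and all columns were used. No replicates were alike within counting error.

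Expression was tested in R 4.3.3 with limma 3.58.1 (lmFit, eBayes with a trend) on log2(normalized count + 1) of 13404 genes, those whose mean reached 10, with the means of 4 groups and p-values adjusted after Benjamini and Hochberg over all of them. Fold changes are on that scale. The study names DESeq2 for its tests. DESeq2 1.42.0 and edgeR 4.0.16 (quasi-likelihood) were run on the recovered reads as alternatives, and the other alternatives stand in the closing section. The script was tested on simulated data. Named genes were the 9 members, genes of a list of 31 pathway genes called in any comparison, and for the 2 members with the largest mean change in cold the 5 most similar genes, and 2 genes that this rule takes in are not reported here. *Pygm*, *Slc2a1* and *Slc2a4* were named in addition after their values were seen. Members, lists and tests were chosen with earlier results of these data known. Positions and exon lengths came from GENCODE M21 and promoter sequences from RefSeq (GRCm38.p6). Shares were compared with exact permutation tests. Python 3.11.15 was used for these steps.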

Additional observations from a re-analysis of the deposited data

How the results depend on the processing

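*Gys2*, *Pygb* and *Gyg* kept their direction for cold against RT in both genotypes under all 21 alternatives run for each, and their call under all but 1, the fibroblast marker mean as a covariate, where *Gyg* in Atf4WT mice had an adjusted p of 0.0613 (limma). *Gyg* changed by less than the 1.5 times that the study asked for. No member was called between genotypes or for the difference of responses under any alternative. With the B and T cell marker mean as a covariate, 5 members were called in Atf4WT cold mice in place of 3, with *Gys1* and *Ppp1r3b* added, while all called genes went from 4273 to 1748 (13% of those tested). The marker means of Atf4WT RT and cold libraries did not overlap, so this fit cannot separate B and T cell content from cold. The cause was not tested for any change given here. The labels do not say whether a replicate number stands for a shared litter or batch. The correlations of same-numbered libraries ran from 0.179 to 0.389 for replicate 1 and from -0.189 to 0.367 for replicates 0 and 2. Of these correlations 9 of 18 were over 0.1, and 6 of 12 libraries were closest to one of their own number. A factor shared by number is therefore not settled, and the main fit leaves it out. A replicate block brought *Ppp1r3b* to an adjusted p of 0.0433 in Atf4WT and 0.0395 in Atf4AKO mice (limma), 4 and 5 members called, and 4858, 4129, 3, 189 and 0 genes in place of 4273, 3467, 1, 4 and 0 for cold in Atf4WT, cold in Atf4AKO, the genotypes at RT, the genotypes after cold and the difference of responses.

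These uncalled log2 fold changes turned their sign. With the B and T cell marker mean as a covariate, *Ppp1r3c* in cold Atf4WT mice was 0.77. The difference between genotypes after cold was -0.43 for *Gys1*, -0.52 for *Gys2*, -0.39 for *Pygl*, -0.11 for *Pygb* and -0.23 for *Gbe1*, and the difference of responses was -0.53 for *Gys1*, -0.47 for *Gbe1*, -1.21 for *Ppp1r3c*, -2.10 for *Ppp1r3b*, -0.017 for *Ugp2* and -0.019 for *Gyg*. Without the 3 libraries with high muscle markers the genotypes at RT differed by -0.026 for *Gys1*, -0.025 for *Gys2*, -0.029 for *Pygl* and -0.037 for *Ugp2*, and the responses by 0.41 for *Gys2*, 0.27 for *Pygl*, -0.31 for *Ppp1r3c* and -0.022 for *Gyg*. With the fibroblast marker mean as a covariate the responses differed by 0.011 for *Gys2* and -0.066 for *Ppp1r3c*, and without replicate 1 of both cold groups by -0.41 for *Ppp1r3b*. With the muscle marker mean as a covariate *Ugp2* at RT was -0.016 and the response of *Gys2* 0.071. The difference of responses was 0.020 for *Gys2* and -0.0003 for *Ppp1r3c* with array weights, -0.033 for *Gbe1* after rescaling to the same 75th percentile, and for *Ppp1r3c* -0.0011 by edgeR and -0.021 by DESeq2. With each library left out in turn, cold changed *Ppp1r3c* by -0.88 to 0.0074 in Atf4WT and by -0.72 to 0.15 in Atf4AKO mice, and *Pygl* by -0.086 to 0.32 in Atf4AKO mice. The genotypes at RT differed by -0.026 to 0.23 for *Gys1*, -0.025 to 0.62 for *Gys2*, -0.029 to 0.43 for *Pygl*, -0.58 to 0.092 for *Ppp1r3c*, -1.27 to 0.23 for *Ppp1r3b*, -0.037 to 0.16 for *Ugp2* and -0.013 to 0.081 for *Gyg*, and after cold by -0.56 to 0.43 for *Ppp1r3c* and -0.89 to 0.087 for *Ppp1r3b*. The responses differed by -0.069 to 0.19 for *Gys1*, -0.35 to 0.30 for *Gys2*, -0.32 to 0.14 for *Pygl*, -0.30 to 0.24 for *Gbe1*, -0.39 to 0.60 for *Ppp1r3c*, -0.54 to 0.97 for *Ppp1r3b* and -0.011 to 0.15 for *Gyg*.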
